A study of Mus musculus with 8 samples.

Results

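Tight junction genes were described in JUN TetON ESCs, a mouse embryonic stem cell line that makes JUN once doxycycline is added. With earlier results of these data known, the 9 genes were chosen by name from the 50600 gene names of the deposited RNA-seq table. They are the claudins *Cldn3*, *Cldn4*, *Cldn6*, *Cldn7* and *Cldn9*, the other membrane proteins *Ocln* and *F11r*, and the cytoplasmic plaque proteins *Tjp1* and *Cgn*. Of these, 8 had a mean of at least 5 over all libraries and were tested, among the 10222 genes that passed this filter. *Cldn9* had a mean of 2 and was left out of the test.

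Tight junctions seal the space between neighbouring epithelial cells close to their apical side. Claudins form the paired strands of the seal and set which ions pass, occludin and JAM-A lie in the same membrane domain, and ZO-1 and cingulin link the strands to actin. Embryonic stem cells grow as compact colonies with epithelial character and express some claudins.

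The cells were OG2 ESCs, which carry an Oct4-GFP transgene, of a mixed 129SVJ, C57B6 and CBA background at passage 12. They carried the c-Jun TetOn construct and grew without feeders in medium with serum, LIF, PD0325901 and Chir99021. Every group received 2 μg/ml doxycycline, and the groups differed in what was given with it for 6 h, which was DMSO as the solvent control, PFI-3 alone, BI-9564 alone, or the pair of compounds together (P+B). PFI-3 binds the bromodomain of BRG1, the BAF ATPase, and BI-9564 binds those of BRD7 and BRD9. Each of the 4 groups had 2 libraries, 8 in all, and cells without doxycycline were not analysed here, so a level before JUN cannot be given. The labels give the 6 h, other notes on these libraries differ, and how long JUN was on in all was not settled from the sources used here. The labels give no dose for the compounds, and the dose of each in P+B was not settled from the sources used here. Nothing in the labels says whether replicates were separate cultures, so p-values measure the spread between these libraries only.

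Values are TPM, a share of the transcripts of a library, given by the authors as whole numbers. They are corrected for transcript length, so levels of different genes can be compared. TPM keeps no read number, so depth and counting error are unknown, and values near 0 move in whole steps. In bulk RNA fewer cells of a type and less RNA per cell cannot be told apart. *Jun* was high in all 8 libraries, from 1569 to 3011 TPM, and was higher in replicate 2 than in replicate 1 of every group, by 0.46 to 0.55 on the log2 scale. The 8 pluripotency markers passed the filter and summed to between 3276 and 5028 TPM per library, most of it *Dppa5a* and *Pou5f1*. None of the 8 was called against DMSO, and their median log2 change was −0.02 with P+B, 0.40 with PFI-3 and −0.16 with BI-9564. With the replicate number as a block *Esrrb* (log2 change 0.74, limma adjusted p = 0.00486, and 0.12 without the block) and *Klf2* (1.03, 0.00284, and 0.0568 without) were called higher with P+B, beside 2.93% of all tested genes. Their part in the results below was not tested. Of the 8 fibroblast markers 4 were at 0 in every library, and the list summed to between 0 and 5 TPM. Of the 8 primitive endoderm markers 3 were at 0 in every library, and that list summed to between 19 and 29 TPM. Most of this sum was *Col4a1*, at 14 to 26 TPM. Among the trophectoderm markers *Krt8* and *Krt18* were called lower with P+B, and the list is described after the junction genes.

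JUN binds AP-1 sites in DNA, so the promoter windows of the members were searched for them. RefSeq (GRCm38.p6) held 10 windows for 8 of the 9 members, since *Cldn7* and *Ocln* had more than 1 start, and the 250 bases before each start were searched on both strands for the AP-1 motif TGANTCA, the E-box CAGGTG and the Grainyhead-like motif AACCNGGTT. These motifs do not overlap each other. AP-1 motifs lay in 2 of the 10 windows, those of *Cldn4* and *F11r*, beside 6.75% of all 32851 windows. E-boxes lay in 5 of the 10, beside 17.2% of all windows, and the Grainyhead-like motif lay in none, beside 0.24%. A match is a description of letters and says nothing of binding. The windows of *Cldn4* and *F11r* are shown because they hold the AP-1 motifs and that of *Cldn6* because its mRNA changed most. They are at chr5:134946935-134947184 (minus strand), chr1:171437311-171437534 (plus strand) and chr17:23679115-23679248 (plus strand), each ends before the first transcribed base of the gene in GENCODE M21, and capitals mark AP-1 motifs and E-boxes.
Cldn4: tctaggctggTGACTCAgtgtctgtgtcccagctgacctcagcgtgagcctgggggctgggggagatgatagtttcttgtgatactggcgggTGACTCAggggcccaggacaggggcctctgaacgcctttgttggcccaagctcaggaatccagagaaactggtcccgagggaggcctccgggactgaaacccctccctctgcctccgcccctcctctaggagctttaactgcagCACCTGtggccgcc
F11r: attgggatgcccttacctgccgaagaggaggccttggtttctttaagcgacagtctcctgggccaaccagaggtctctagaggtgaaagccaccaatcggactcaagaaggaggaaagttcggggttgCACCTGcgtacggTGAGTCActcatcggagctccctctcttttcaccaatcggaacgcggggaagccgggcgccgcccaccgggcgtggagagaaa
Cldn6: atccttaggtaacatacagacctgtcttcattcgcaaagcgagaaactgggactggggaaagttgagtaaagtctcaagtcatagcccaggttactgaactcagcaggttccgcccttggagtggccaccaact
In *Cldn4* the AP-1 motifs began 240 and 158 bases before the RefSeq start and in *F11r* 109 bases before it, the start of *F11r* in RefSeq lying past the end of the part shown. The part of the *Cldn6* window that is shown held neither motif, and an E-box lay 93 bases before the RefSeq start, in the transcribed part that is not shown. The AP-1 search used TGANTCA only, so other sites that JUN may bind were not looked for. The longer TGACGTCA was not searched, and these letters stand in the part of the *Cldn6* window not shown and in a *Cldn7* window. Their share of all windows was not counted.

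The claudins were led by *Cldn4*, which encodes a claudin of tight epithelia and lies on chromosome 5 at 134945119 to 134946934 (minus strand, GRCm38). *Cldn4* was at 294 and 225 TPM in the DMSO libraries, 247 and 195 under PFI-3, 257 and 189 under BI-9564, and 180 and 120 under P+B. Both P+B libraries were below every other library, while the groups with a single compound overlapped DMSO. *Cldn6*, a claudin of embryonic epithelia that is largely silent in adult tissue, lies on chromosome 17 at 23679249 to 23682446 (plus strand). *Cldn6* was at 103 and 143 TPM in the DMSO libraries, 64 and 74 under PFI-3, 58 and 82 under BI-9564, and 29 and 26 under P+B. The 4 libraries with a single compound lay between those with DMSO and those with P+B, with no overlap on either side, and the groups with PFI-3 and BI-9564 overlapped each other.

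*Cldn3*, a barrier-forming claudin, lies on the same chromosome as *Cldn4*, 39280 bases away, at 134986214 to 134987472 (plus strand). *Cldn3* was at 16 and 13 TPM in the DMSO libraries, 16 and 10 under PFI-3, 12 and 8 under BI-9564, and 10 and 9 under P+B. The P+B and BI-9564 libraries were below both DMSO libraries, by a few TPM. An antisense gene, *Wbscr25*, overlaps *Cldn3*, and no source used here says whether counting used strand, so reads of the pair may not be told apart. *Cldn7*, which is also found along the lateral membrane, lies on chromosome 11 at 69964779 to 69967885 (plus strand). *Cldn7* was at 17 and 6 TPM in the DMSO libraries, 17 and 8 under PFI-3, 9 and 4 under BI-9564, and 6 and 10 under P+B. All groups overlapped DMSO, and the DMSO replicates differed by more than any pair of group means.

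*Cldn9*, a close relative of *Cldn6*, lies on chromosome 17 at 23682584 to 23684026 (minus strand), 138 bases from *Cldn6* and with its end facing it. *Cldn9* was at 4 and 3 TPM in the DMSO libraries, at 3 and 4 under PFI-3, at 0 and 2 under BI-9564, and was listed at 0 in both P+B libraries. The P+B and BI-9564 libraries were below both DMSO libraries, at levels where a TPM of 1 is the smallest step. When the filter was lowered to a mean of 1, *Cldn9* did not pass in P+B against DMSO (limma, adjusted p = 0.0923), and no fold is given against a group listed at 0.

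*Ocln* encodes occludin, a membrane protein of the strands, on chromosome 13 at 100496507 to 100552718 (minus strand). *Ocln* was at 12 and 12 TPM in the DMSO libraries, 11 and 12 under PFI-3, 10 and 15 under BI-9564, and 8 and 11 under P+B. *F11r* encodes the adhesion molecule JAM-A, on chromosome 1 at 171437535 to 171464603 (plus strand). *F11r* was at 38 and 20 TPM in the DMSO libraries, 36 and 27 under PFI-3, 42 and 28 under BI-9564, and 30 and 26 under P+B. P+B was below DMSO by 1 to 4 TPM for *Ocln*, while for *F11r* every group overlapped DMSO.

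*Tjp1* encodes the scaffold ZO-1, on chromosome 7 at 65296165 to 65527781 (minus strand). *Tjp1* was at 85 and 80 TPM in the DMSO libraries, 72 and 76 under PFI-3, 84 and 95 under BI-9564, and 77 and 72 under P+B. *Cgn* encodes cingulin, which binds ZO-1 and myosin, on chromosome 3 at 94760069 to 94786492 (minus strand). *Cgn* was at 8 and 11 TPM in the DMSO libraries, 6 and 5 under PFI-3, 7 and 7 under BI-9564, and 6 and 6 under P+B. For *Cgn* every treated library was below both DMSO libraries, by 1 TPM at the closest, and for *Tjp1* those with PFI-3 or P+B were.

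**Figure D1:**
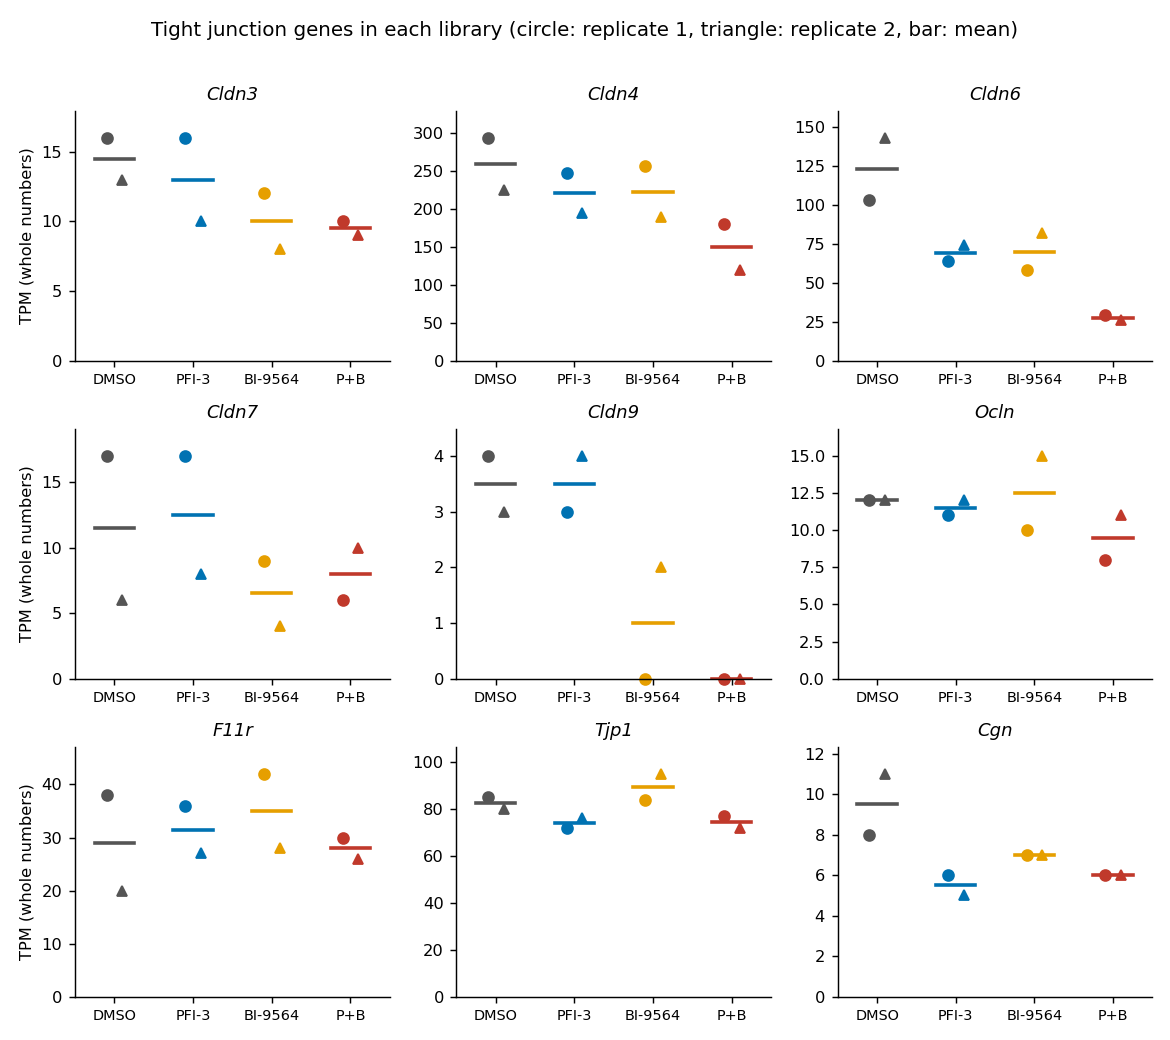
TPM (whole numbers, vertical axis, from 0) of the 9 genes in the 8 libraries, by treatment; circles are replicate 1, triangles replicate 2 and bars the mean of both. *Cldn6* was at 103 and 143 in DMSO libraries and at 29 and 26 under P+B, while *Tjp1* stayed between 72 and 95 in all libraries.

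With DMSO the genes stood in the order *Cldn4* (259.5 ± 48.8 TPM, SD, n = 2), *Cldn6* (123 ± 28.3), *Tjp1* (82.5 ± 3.54), *F11r* (29 ± 12.7), *Cldn3* (14.5 ± 2.12), *Ocln* (12 ± 0), *Cldn7* (11.5 ± 7.78), *Cgn* (9.5 ± 2.12) and *Cldn9*. Neighbours in this order had separate ranges except *Cldn7*, whose range reached over *Ocln* and *Cgn*. *Cldn6* was the second gene of the order with DMSO, the third with PFI-3 (69 ± 7.07) and BI-9564 (70 ± 17), where *Tjp1* had the higher mean, and the fourth with P+B (27.5 ± 2.12), where its range overlapped that of *F11r* (28 ± 2.83). *Cldn4* was first in every group, and *Cldn9* last.

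The comparison of P+B with DMSO asks what both bromodomain inhibitors change in cells that make JUN. A gene was called when limma's test gave a Benjamini-Hochberg adjusted p under 0.05 over all tested genes and the fold was at least 1.5, on the log2(TPM + 1) scale, which understates changes of low genes. Of the 8 tested genes 1 was called, *Cldn6*, and it fell; among all tested genes 2.72% were called lower and 4% in either direction. *Cldn6* was 4.30-fold lower with P+B (log2 change −2.10, SE 0.20, 95% interval −2.57 to −1.64, limma adjusted p = 0.00233). In the same-numbered pairs P+B held 0.282 and 0.182 of the DMSO level. *Cldn6* was 36th from the lowest of 10222 log2 changes. The call held with each library left out in turn (adjusted p from 0.0052 to 0.0369), and was lost when only the 4 libraries compared were used (adjusted p = 0.1), where no gene of the table was called and 1962 had an unadjusted p under 0.05.

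*Cldn4* was lower by a log2 change of −0.80 (SE 0.23, 95% interval −1.33 to −0.27), which did not pass (limma adjusted p = 0.0886). Its replicates differed in the same direction in every group, and with the replicate number as a block it was called, with the same change, an SE of 0.07 and a limma adjusted p of 0.00104. That fit called 2 of the 8 genes lower, beside 4.1% of all tested genes. Leaving out a library moved the change of *Cldn4* between −1.09 and −0.51, the ends being those without replicate 1 and without replicate 2 of P+B.

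The other 6 tested genes were not called. The log2 change was −0.57 for *Cgn* (limma adjusted p = 0.252), −0.56 for *Cldn3* (0.289), −0.36 for *Cldn7* (0.747), −0.32 for *Ocln* (0.486), −0.15 for *Tjp1* (0.457) and 0.02 for *F11r* (0.989). The 95% interval was narrow for *Tjp1*, −0.39 to 0.10, and wide for *Cldn7*, −1.62 to 0.91, and for *F11r*, −0.69 to 0.72. It reached down to −1.20 for *Cldn3*, −1.18 for *Cgn* and −0.89 for *Ocln*. A 1.5-fold fall was thus not excluded by these libraries for any of the 6 genes other than *Tjp1*. The sign for *F11r* turned under median centring (−0.08) and under quantile normalization (−0.07). Both P+B libraries lay below both DMSO libraries for 6 of the 8 genes, namely *Cldn3*, *Cldn4*, *Cldn6*, *Ocln*, *Tjp1* and *Cgn*, beside 18.9% of all tested genes. The median log2 change of the 8 genes was −0.46, beside 0.06 over all tested genes. For a single gene the exact two-sided permutation test of 2 against 2 libraries cannot go below p = 0.333. Each of these 6 genes gave that value, so the test does not set them apart.

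**Figure D2:**
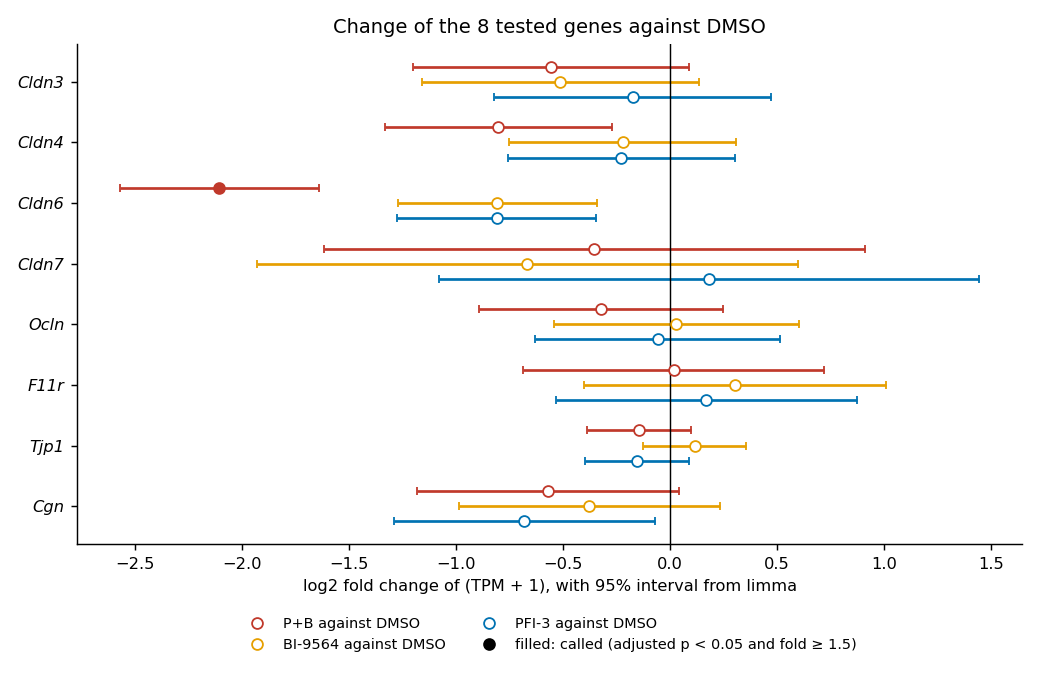
Log2 change against DMSO (horizontal axis, log2 of TPM + 1) of the 8 tested genes with P+B, BI-9564 and PFI-3; points are limma estimates, lines their 95% intervals, and a filled point a called gene. *Cldn6* with P+B, at −2.10, is the only filled point, and the intervals of *Cldn7* are the widest.

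The groups with a single compound were set against the same DMSO libraries, so their changes share that group. With PFI-3 none of the 8 genes was called, beside 0% of all tested genes, of which 694 had an unadjusted p under 0.05. With BI-9564 none was called either, beside 0.108% of all tested genes. *Cldn6* had a log2 change of −0.81 (SE 0.20, 95% interval −1.27 to −0.35, limma adjusted p = 0.514) with PFI-3 and of −0.81 (SE 0.20, 95% interval −1.27 to −0.34, limma adjusted p = 0.157) with BI-9564. With the replicate block *Cldn6* was called lower with BI-9564 (limma adjusted p = 0.0463), beside 1.04% of all tested genes, and not with PFI-3 (0.157). Both libraries lay below both DMSO libraries for 3 of the 8 genes with PFI-3 (*Cldn6*, *Tjp1* and *Cgn*), beside 12.8% of all tested genes, and for 3 with BI-9564 (*Cldn3*, *Cldn6* and *Cgn*), beside 18.3%.

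The next largest changes with a single compound were those of *Cgn* with PFI-3, −0.68 (95% interval −1.29 to −0.07, limma adjusted p = 0.669), and of *Cldn7* with BI-9564, −0.67 (95% interval −1.93 to 0.60, limma adjusted p = 0.612). *Cldn4* had a change of −0.23 (95% interval −0.76 to 0.30) with PFI-3 and −0.22 (95% interval −0.75 to 0.31) with BI-9564. These changes moved with single libraries, since that with PFI-3 was −0.04 without DMSO replicate 1 and −0.42 without DMSO replicate 2, and that with BI-9564 was −0.0011 without BI-9564 replicate 2 and −0.44 without BI-9564 replicate 1. The median log2 change of the 8 genes was −0.16 with PFI-3 and −0.30 with BI-9564, beside 0.02 over all tested genes in each comparison.

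P+B was also compared with each compound alone. The dose of each in P+B was not settled, so an added compound and a changed dose cannot be told apart. Against PFI-3, *Cldn6* was called and fell by 1.29 on the log2 scale (95% interval −1.76 to −0.83, limma adjusted p = 0.0253, and 0.00641 with the block), the only call among the 8 genes in either fit. Of all tested genes 1.31% were called in this comparison and 1.05% called lower, or 2.4% lower with the block. This call was lost without either replicate of DMSO, PFI-3 or P+B, where fewer of all tested genes were called as well. The log2 change of *Cldn6* stayed between −1.40 and −1.19. Against BI-9564, *Cldn6* had a log2 change of −1.30 (95% interval −1.76 to −0.83, limma adjusted p = 0.0727), so none of the 8 genes was called, beside 0.196% of all tested genes. With the replicate block it was called lower (limma adjusted p = 0.0147), beside 0.724% of all tested genes. The P+B libraries held 0.453 and 0.351 of the *Cldn6* level of the same-numbered PFI-3 libraries, and 0.5 and 0.317 of that with BI-9564.

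*Cldn4* was lower with P+B than with either compound in every library, by a log2 change of −0.58 against each. Without P+B replicate 2 the change was −0.28 against PFI-3 and −0.29 against BI-9564, and without P+B replicate 1 it was −0.87 against each. It was not called against PFI-3 (limma adjusted p = 0.267) or BI-9564 (0.575). With the block the adjusted p was 0.00798 and 0.0162, but both folds (1.49 against PFI-3) were under the fold threshold, so it was not called there either. *Tjp1* had a log2 change of −0.26 against BI-9564 (95% interval −0.50 to −0.02, limma adjusted p = 0.585). Both P+B libraries lay below both libraries of the single compound for 2 of the 8 genes against PFI-3 (*Cldn4* and *Cldn6*), beside 18.9% of all tested genes, and for 4 against BI-9564 (*Cldn4*, *Cldn6*, *Tjp1* and *Cgn*), beside 13.7%.

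BI-9564 and PFI-3 bind different bromodomains, and the comparison between them gave no call among the 8 genes, beside 0.108% of all tested genes. The log2 difference was 0.00 for *Cldn6* (SE 0.20, 95% interval −0.46 to 0.47) and 0.01 for *Cldn4* (95% interval −0.52 to 0.54). Their intervals allow a difference of up to about that size in either direction. *Tjp1* was higher with BI-9564 by 0.27 (95% interval 0.03 to 0.51, limma adjusted p = 0.321), and *Cldn7* differed by −0.85 (95% interval −2.11 to 0.41, limma adjusted p = 0.544). Both BI-9564 libraries lay above both PFI-3 libraries for *Tjp1* and *Cgn*, beside 20.5% of all tested genes.

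Claudin mRNAs were also compared as a sum and by their shares in it, with no test. The 5 claudins summed to 434 and 390 TPM in the DMSO libraries, 347 and 291 under PFI-3, 336 and 285 under BI-9564, and 225 and 165 under P+B. *Cldn6* made up 23.7% and 36.7% of this sum with DMSO, 18.4% and 25.4% under PFI-3, 17.3% and 28.8% under BI-9564, and 12.9% and 15.8% under P+B. The P+B shares were below those of every other library, while the single compounds overlapped DMSO. *Cldn4* made up 67.7% and 57.7% in the DMSO libraries and 80% and 72.7% under P+B. Per molecule of *Cldn4* there were 0.35 and 0.636 of *Cldn6* with DMSO and 0.161 and 0.217 under P+B. The 5 members held between 83.3% and 93.8% of the summed TPM of the 21 claudins examined. This share was 93.1% and 92.4% in the DMSO libraries and 88.6% and 83.3% under P+B. The 16 other claudins summed to between 23 and 33 TPM per library.

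**Figure D3:**
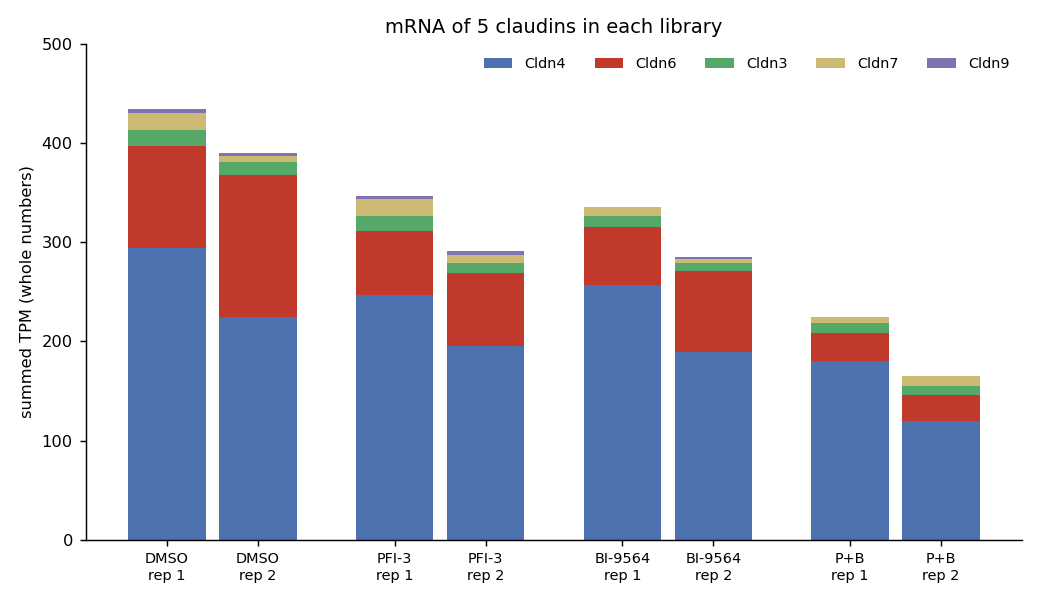
Summed TPM (whole numbers, vertical axis, from 0) of the 5 claudins in each of the 8 libraries, stacked by gene. The sums run from 434 in the first DMSO library to 165 in the second P+B library, and the *Cldn6* block shrinks from 103 and 143 to 29 and 26.

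Of the 16 other claudins 11 were at 0 in every library and *Cldn12* alone was tested. *Cldn12*, a claudin that lacks the usual PDZ-binding end, was at 31 and 29 TPM in the DMSO libraries, 22 and 26 under PFI-3, 28 and 27 under BI-9564, and 25 and 31 under P+B. Its log2 change with P+B was −0.10 (limma adjusted p = 0.742). *Cldn5*, the claudin of endothelium, and *Cldn20*, the untested claudins with the highest mean, were at 2 TPM or less and at 4 or less.

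Beyond the 9 genes, 30 further tight junction genes were tested, from lists of claudins, membrane proteins, plaque scaffolds, polarity proteins and regulators. With P+B 2 of the 30, *Jam2* and *St14*, were called lower than with DMSO and none higher, beside 2.72% called lower of all tested genes. A negative log2 change was found for 66.7% of the 30, beside 41.7% of all tested genes, and their median was −0.16, beside 0.06. An unadjusted limma p under 0.05, in either direction, was found for 36.7% of the 30, beside 22.6%. With PFI-3 and with BI-9564 none of the 30 was called in either direction, and their medians were −0.08 and −0.08. An unadjusted p under 0.05 was found for 6.67% of the 30 with PFI-3, beside 6.79% of all tested genes, and for 20% with BI-9564, beside 14.9%. With the replicate block, and not without it, *Jam3* was called lower with BI-9564 (log2 change −0.63, limma adjusted p = 0.0389), beside 1.04% of all tested genes. *Jam3* encodes JAM-C and was named after its values were seen. It was at 34 and 40 TPM in the DMSO libraries and 22 and 25 under BI-9564. An antisense gene, *Gm48796*, overlaps *Jam3*.

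*Jam2* encodes JAM-B, an adhesion molecule related to JAM-A, and was 1 of 6 tested membrane proteins. *Jam2* was at 90 and 90 TPM in the DMSO libraries, 95 and 90 under PFI-3, 71 and 52 under BI-9564, and 51 and 45 under P+B. The libraries with BI-9564, alone or in P+B, were all below those without it. In BI-9564 alone against DMSO *Jam2* was not called without the replicate block. *Jam2* fell by 0.90 on the log2 scale with P+B (SE 0.15, limma adjusted p = 0.0166) and by 0.93 against PFI-3 (limma adjusted p = 0.0264), where it was the only call among the 30 genes. Against BI-9564 its log2 change was −0.34 (limma adjusted p = 0.632). BI-9564 set against PFI-3 gave *Jam2* a log2 change of −0.60, which was called only with the replicate block (limma adjusted p = 0.0476, and 0.157 without it), beside 0.978% of all tested genes called lower with the block.

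None of the 6 tested plaque scaffolds other than the members was called with P+B. *Ybx3*, which encodes a Y-box protein that binds ZO-1, was at 443 and 555 TPM in the DMSO libraries and 488 and 495 under P+B (log2 change −0.01, limma adjusted p = 0.96). *Sympk*, which encodes symplekin, was at 97 and 110 TPM in the DMSO libraries and 122 and 127 under P+B (log2 change 0.27, limma adjusted p = 0.283).

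*St14* encodes matriptase, a membrane protease needed for epithelial barriers, and was 1 of 9 tested regulators. *St14* was at 94 and 85 TPM in the DMSO libraries, 72 and 54 under PFI-3, 77 and 62 under BI-9564, and 54 and 36 under P+B. Every treated library was below both DMSO libraries, and the second P+B library was the lowest. *St14* fell by 1.00 on the log2 scale with P+B (SE 0.21, limma adjusted p = 0.0401). The annotation places 1 processed pseudogene each within *Tjp1* and *St14*, whose reads the counting could have shared.

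Neither call was as stable as that of *Cldn6*. *Jam2* was not called without replicate 1 or 2 of DMSO, or without replicate 1 or 2 of P+B. *St14* was not called with any of the 8 libraries left out. Fewer of all tested genes were called in these fits as well. With 1 library left out the log2 change stayed between −0.98 and −0.81 for *Jam2* and between −1.29 and −0.72 for *St14*. *Jam2* against PFI-3 was not called without either replicate of DMSO, PFI-3 or P+B, and its log2 change stayed between −1.02 and −0.85. *Magi1*, a junction scaffold named after its values were seen, was called lower with P+B only with the replicate block. Its log2 change was −0.75 (limma adjusted p = 0.0492, and 0.0762 without the block), beside 4.1% of all tested genes called lower with the block. *Magi1* was at 26 and 24 TPM in the DMSO libraries and 15 and 14 under P+B.

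**Figure D4:**
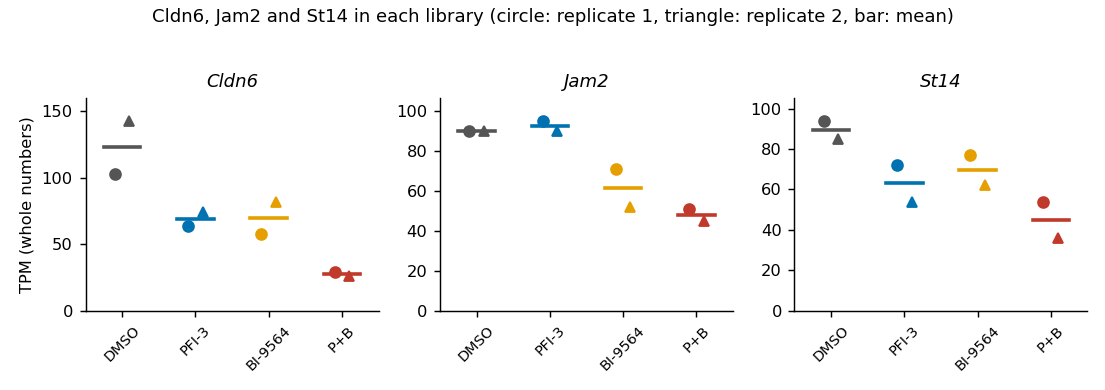
TPM (whole numbers, vertical axes, from 0) of *Cldn6*, *Jam2* and *St14* in the 8 libraries, each called lower with P+B than with DMSO; circles are replicate 1, triangles replicate 2 and bars the mean. *Jam2* is at 90 to 95 with DMSO or PFI-3 and at 45 to 71 in the libraries with BI-9564 or P+B.

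Polarity proteins place the junction along the cell side, and none of the 8 tested was called with P+B. Of the 8, 4 had a negative and 4 a positive log2 change, with a median of −0.03. The largest rise was that of *Prkcz*, 0.70 (limma adjusted p = 0.126), and the largest fall that of *Crb3*, −0.54 (0.126). Both were named after their values were seen. *Prkci*, the atypical protein kinase C iota, was at 109 and 87 TPM in the DMSO libraries and 72 and 68 under P+B (log2 change −0.47, limma adjusted p = 0.0855). *Pard3*, its scaffold partner, was at 52 and 47 TPM in the DMSO libraries and 45 and 55 under P+B (log2 change 0.01, limma adjusted p = 0.981).

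Keratins 8 and 18, filament proteins of simple epithelia that stand in the trophectoderm marker list, fell with P+B. Their sum was 266 and 203 TPM in the DMSO libraries, 167 and 132 under PFI-3, 155 and 107 under BI-9564, and 80 and 50 under P+B. *Krt18* fell by 2.00 on the log2 scale with P+B (limma adjusted p = 0.00349) and *Krt8* by 1.75 (limma adjusted p = 0.0155). Their part in the change of *Cldn6* was not tested. Without DMSO replicate 1 or P+B replicate 2 neither keratin was called, nor was *Krt8* without DMSO replicate 2. Fewer of all tested genes were called in these fits as well. With 1 library left out the log2 change stayed between −2.20 and −1.79 for *Krt18* and between −2.15 and −1.35 for *Krt8*. The summed trophectoderm list of 8 markers was 289 and 223 TPM in the DMSO libraries, 191 and 151 under PFI-3, 174 and 132 under BI-9564, and 104 and 78 under P+B. The other 6 markers of the list summed to between 19 and 28 TPM in every library. *Cdx2*, the defining factor of trophectoderm, was at 1 and 0 TPM in the DMSO libraries and at 5 and 10 under P+B. *Hand1* was at 4 and 6 TPM with DMSO and at 1 and 1 under P+B, and *Gata3* at 6 and 2 and at 1 and 1, so this pair was lower where *Cdx2* was higher. These 3 genes had a mean under 5 and were not tested. *Elf5* was at 0 in all libraries but 1, and *Eomes* (log2 change 0.33) and *Tfap2c* (0.50) were tested and not called with P+B.

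The tested genes whose pattern over the 8 libraries was most like that of *Cldn6* were *Lama3* (Pearson's r = 0.996), *Fosl1* (0.993) and *Capn2* (0.993), on the log2(TPM + 1) scale. The libraries are those of the same 4 treatments, so these values are descriptions without a p. *Lama3*, a laminin chain of basement membranes, was at 24 and 31 TPM in the DMSO libraries, 17 and 20 under PFI-3, 15 and 21 under BI-9564, and 8 and 7 under P+B. *Fosl1*, which encodes the AP-1 protein FRA1, was at 47 and 67 TPM in the DMSO libraries, 29 and 35 under PFI-3, 28 and 43 under BI-9564, and 12 and 9 under P+B. *Capn2*, a calcium-dependent protease, was at 30 and 35 TPM in the DMSO libraries, 17 and 21 under PFI-3, 17 and 21 under BI-9564, and 9 and 7 under P+B.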

How the data were processed

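RNA-seq of 8 libraries, 2 for each of 4 treatments, was analysed. Libraries were made with a VAHTS mRNA-seq kit. The submitters' processing notes name bcl2fastq, Bowtie2 2.2.5, RSEM 1.3.0 and the mm10 genome, and the annotation is not given in the sources used here. The deposited file gives 50600 gene names with 1 score per library, which is TPM turned into whole numbers by the authors. Every value was whole, and the libraries summed to between 991574 and 991897. Of the names, 33075 were at 0 in all libraries and 27 were written as dates. TPM keeps no depth, so no interval for counting error is given, and the count test named in the methods was not run.

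Samples were grouped by their labels. The test was that of limma 3.58.1 (R 4.3.3), two-sided, on log2(value + 1), with lmFit followed by eBayes with a mean trend. All 4 groups entered 1 fit, and 10222 genes, whose mean reached 5, were tested. Each of the 6 comparisons had its own Benjamini-Hochberg adjustment, and a call needed an adjusted p under 0.05 and a fold of at least 1.5. Within each group replicate 1 was subtracted from replicate 2, and these differences correlated over genes in each of the 6 pairs of groups (Pearson's r 0.143 to 0.236). The numbers in the labels may therefore pair the samples, though these correlations are low. Results are from the fit without a block unless a block is named, and each result was also fitted with a block for the number. The procedure was tested on simulated data.

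The members and lists were chosen with earlier results of these data known. Named were all 9 members, every called gene of the other tight junction lists or else the 2 with the highest mean, and the 3 genes with the pattern most like a called member. The lists were other claudins, membrane proteins, plaque scaffolds, polarity proteins, regulators, transcription regulators of junction genes, and markers of pluripotent cells, trophectoderm, primitive endoderm and fibroblasts. Some genes of these lists are not reported here and entered no count of a list. Other settings tried were that block, a pseudocount of 0.5 or of 5, a filter of a mean of at least 1 and none, quantile normalization, median centring, no trend, only the 4 libraries compared, and each library left out. Positions are from GENCODE M21 on GRCm38 and promoter windows from RefSeq on GRCm38.p6, read with Python 3.11.15 and pandas 2.3.3.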

Additional observations from a re-analysis of the deposited data

How the results depend on the processing

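Under the settings tried the direction of *Cldn6* and *Cldn4* against DMSO and with P+B against each compound did not turn. The pairing of samples by replicate number changed calls: with the replicate block 2 members were called in P+B against DMSO, 1 in BI-9564 against DMSO and 1 in P+B against BI-9564. It changed no other count of member calls. When only the 4 libraries compared were fitted, 0 members were called in P+B against DMSO and 0 in P+B against PFI-3, and 0 of the other tight junction genes in either. No gene of the table was called in either comparison there. In P+B against PFI-3, 0 members and 0 other tight junction genes were called with a filter of a mean of at least 1, with no filter or without trend. Of all genes tested there 77 of 13101, 6 of 17525 and 4 of 10222 were called, beside 134 of 10222 with the settings used above. In P+B against DMSO 1 other tight junction gene was called with a filter of a mean of at least 1 and 1 without trend, and 0 with no filter. Over all genes the calls in these settings were 339 of 13101, 385 of 10222 and 201 of 17525, beside 409 of 10222 with the settings used above. These alternatives test more genes or have fewer samples or another estimate of the spread. With 1 library left out, some calls were lost for members in P+B against PFI-3 and for the other tight junction genes in both comparisons. Fewer of all tested genes were called in those fits as well. The group with a lone library is then assumed to vary like the others. The alternatives for genes outside the members were chosen after seeing the data.

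Signs turned only for changes that were not called. *F11r* with P+B against DMSO was −0.0657 with quantile normalization and −0.0774 with median centring, *Ocln* with BI-9564 against DMSO was −0.0375 and −0.018, and *Tjp1* with P+B against PFI-3 was −0.0365 with median centring. With 1 library left out the log2 changes against DMSO ran from −1.0365 to 0.326 (*Cldn7*) and −0.4309 to 0.4622 (*F11r*) with P+B, from −0.488 to 0.1401 (*Cldn3*), −0.5 to 0.8626 (*Cldn7*) and −0.277 to 0.6161 (*F11r*) with PFI-3, and from −1.348 to 0.0146 (*Cldn7*), −0.1433 to 0.7498 (*F11r*) and −0.241 to 0.2996 (*Ocln*) with BI-9564. They ran from −0.3549 to 0.0472 (*F11r*) and −0.0385 to 0.0571 (*Tjp1*) in P+B against PFI-3, from −0.3098 to 0.2208 (*Cldn3*) and −0.1885 to 0.8115 (*Cldn7*) in P+B against BI-9564, and from −0.2146 to 0.2268 (*Cldn4*), −0.243 to 0.2494 (*Cldn6*), −0.1504 to 0.4179 (*F11r*) and −0.1833 to 0.3573 (*Ocln*) in BI-9564 against PFI-3. The causes were not tested. Depth is unknown, so how far counting error limits *Cldn3*, *Cldn7*, *Cldn9*, *Ocln* and *Cgn*, all at 17 TPM or less, was not tested.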

Other observations

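Transcription regulators of junction genes were examined as a further list, and none of the 6 tested was called with P+B, PFI-3 or BI-9564 against DMSO. Of the 6, 3 had a negative log2 change with P+B, and the median was 0.01. *Klf5*, a Krüppel-like factor of epithelia and of naive pluripotent cells, was at 203 and 166 TPM in the DMSO libraries, 202 and 175 under PFI-3, 177 and 137 under BI-9564, and 144 and 118 under P+B. Its log2 change with P+B was −0.49 (limma adjusted p = 0.125). *Klf4*, a related factor, was at 32 and 25 TPM in the DMSO libraries, 53 and 48 under PFI-3, 35 and 26 under BI-9564, and 48 and 35 under P+B. Its log2 change was 0.81 with PFI-3 (limma adjusted p = 0.514) and 0.52 with P+B (0.189), so *Klf4* and *Cldn6* had opposite signs in both comparisons, neither difference of *Klf4* being called.

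The same-numbered libraries of the 4 groups differed in several members. Replicate 2 was below replicate 1 in all 4 groups for *Cldn3*, *Cldn4* and *F11r*, while *Jun* was higher in replicate 2 in all 4. *Cldn4* was lower in replicate 2 by a log2 difference between −0.58 and −0.34. *Cldn6* was higher in replicate 2 with DMSO, PFI-3 and BI-9564 and lower with P+B, and *Cldn7* was lower in replicate 2 except with P+B.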
